A study of Mus musculus with 6 samples.

Results

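The insulin-like growth factor (IGF) system of quadriceps muscle was followed through 9 genes, chosen by symbol. They are the ligand genes Igf1 and Igf2, the receptor genes Igf1r and Igf2r, and the binding protein genes Igfbp3, Igfbp4, Igfbp5, Igfbp6 and Igfbp7. All 9 were found among the 48795 genes of the count table, and all 9 were among the 13628 genes that passed the filter on low counts and were tested. The samples were quadriceps of male C57BL/6 mice aged 20 weeks, in 2 groups of 3 RNA sequencing libraries. MERKO mice carried a muscle-specific knockout of the estrogen receptor ERα (gene Esr1), and the control mice were wild type. The promoter that drove the recombination, and the alleles of the control mice beyond "wildtype", are not named in the labels. Whether each library came from a separate animal is not stated either, so p-values here reflect library-to-library spread, which may be technical.

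IGF-1 and IGF-2 are small secreted hormones related to insulin, and in muscle they promote protein synthesis, growth and repair of fibres. Both act through the receptor tyrosine kinase IGF1R, whereas IGF2R binds IGF-2 and carries it to lysosomes for breakdown. The binding proteins hold the ligands in blood and in the extracellular matrix, where they can block or prolong their action and are cut by proteases that release the ligand. Much of the circulating IGF-1 comes from liver under growth hormone, and muscle also makes its own.

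The 4 promoters that follow belong to the members on which the results turn. Igf1 and Igfbp5 had the most similar pattern over the libraries, Igfbp3 had the lowest p between the genotypes, and Igfbp6 varied most. They are RefSeq promoters on GRCm38.p6, each with 250 bases before and 50 bases after an annotated start, written 5′ to 3′ on the strand of the gene. Capitals mark GGTCA or its reverse complement, the core of the motif to which estrogen receptors are known to bind.
Igf1 (chr10:87860861-87861160, plus strand): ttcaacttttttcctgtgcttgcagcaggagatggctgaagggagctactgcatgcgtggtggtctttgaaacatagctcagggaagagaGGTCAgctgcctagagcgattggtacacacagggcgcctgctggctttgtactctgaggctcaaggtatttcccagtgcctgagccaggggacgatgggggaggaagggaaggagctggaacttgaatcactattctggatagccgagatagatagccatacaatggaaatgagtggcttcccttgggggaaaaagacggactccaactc
Igfbp5 (chr1:72874816-72875115, minus strand): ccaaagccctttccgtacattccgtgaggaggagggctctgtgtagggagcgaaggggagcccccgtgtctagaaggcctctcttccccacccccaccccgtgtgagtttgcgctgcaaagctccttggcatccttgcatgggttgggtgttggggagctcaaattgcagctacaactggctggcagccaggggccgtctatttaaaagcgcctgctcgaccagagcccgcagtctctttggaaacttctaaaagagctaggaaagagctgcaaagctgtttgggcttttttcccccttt
Igfbp3 (chr11:7213874-7214173, minus strand): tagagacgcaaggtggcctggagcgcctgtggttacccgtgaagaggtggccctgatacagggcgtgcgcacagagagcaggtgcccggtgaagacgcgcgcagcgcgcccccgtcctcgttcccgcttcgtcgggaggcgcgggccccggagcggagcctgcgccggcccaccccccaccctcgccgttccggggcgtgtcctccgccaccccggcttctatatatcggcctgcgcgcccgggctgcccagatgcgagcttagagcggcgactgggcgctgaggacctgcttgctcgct
Igfbp6 (chr15:102143936-102144235, plus strand): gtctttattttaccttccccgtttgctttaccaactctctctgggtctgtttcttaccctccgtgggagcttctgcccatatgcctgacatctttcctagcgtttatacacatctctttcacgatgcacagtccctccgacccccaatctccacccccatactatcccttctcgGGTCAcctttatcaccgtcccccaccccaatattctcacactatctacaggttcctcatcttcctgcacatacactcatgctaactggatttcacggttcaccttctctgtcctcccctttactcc
The full estrogen response element, GGTCA and TGACC with 3 bases of any kind between them, was found in 0 of the 12 RefSeq promoters of the members and in 0.0700% of all 32851 promoters in the table. GGTCA, searched on both strands, was in 7 of the 12 and in 40.5% of all promoters. The Igf1 promoter held it at position -160 and the Igfbp6 promoter at position -76, counted from the start, and the Igfbp3 and Igfbp5 promoters did not hold it. The SP1 box GGGCGG was in 5 of the 12 and in 35.7% of all promoters, with 4 matches in the Igfbp7 promoter. TGANTCA, a looser form of the AP-1 site with any middle base, was in 1 of the 12, that of Igf1, and in 7.81% of all promoters. The Igf1 match reads TGAATCA, whose middle base is not the C or G of the AP-1 consensus. TATAAA was in 2 of the 12, those of Igfbp4 and Igfbp6, and in 13.6% of all promoters. The SP1 box and TATAAA were, like GGTCA, searched on both strands. TATAAA lay at position -28 on the strand of the gene in Igfbp4, and at position -148 on the opposite strand in Igfbp6. The GC content was 52.3% for Igf1, 56.3% for Igfbp5, 71.7% for Igfbp3 and 49.7% for Igfbp6, with a median of 52.7% over all promoters. The Igf1 window lies inside the GENCODE gene model, past its outermost start, and the Igfbp6 window lies wholly upstream of the GENCODE start. A match is a run of letters and not a measured binding site.

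The libraries held between 15755947 and 26596608 counts in MERKO and between 14935532 and 44282448 counts in control. An rRNA gene model took 6.19% to 32.4% of counts in MERKO and 0.0433% to 27.7% in control, with the lowest share in control 3, the deepest library. All 10 myofibre markers were detected in every library, with a summed level of 112450 to 162440 CPM in MERKO and 137940 to 155370 CPM in control. CPM here means counts after TMM scaling brought all libraries to the same effective size. Esr1, the targeted gene, measured 6.75, 9.43 and 7.46 CPM in MERKO libraries 1 to 3, against 25.1, 34.1 and 31.1 CPM in control libraries 1 to 3. It fell by 1.95 on the log2 scale (SE 0.16, adjusted p = 0.0262, edgeR), a call that was lost without MERKO 1, MERKO 2, control 2 or control 3 or without both libraries numbered 2. Its log2 fold change lay between -2.08 and -1.84 over all alternatives, and its adjusted p reached at most 0.242. The tissue was whole muscle, in which fewer cells of a type and less RNA per cell cannot be told apart.

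The main question was whether transcripts of the IGF system differed between MERKO and control muscle. None of the 9 members passed an adjusted p of 0.05, where 0.00734% of all genes tested did, and that share is the single gene Esr1. DESeq2 and limma-voom also called 0 of the 9. At an unadjusted p under 0.05 there was 1 member of 9, Igfbp3, against 7.04% of all genes in either direction and 3.34% with MERKO lower. That count of members was 0 without MERKO 2, MERKO 3 or control 3, and 0 without the TMM factor. It was 2 without control 1 or without both libraries numbered 1 (edgeR). In 0 of the 9 did all MERKO libraries lie on 1 side of all control libraries, against 13.3% of all genes. The log2 fold changes lay between -0.50 and 0.23, with 6 members above 0, 3 below 0 and a median of 0.09. Over all genes tested the median was 0.01, with 7094 genes above 0 and 6534 below 0. The 95% intervals show which changes the data leave possible: for every member the interval lay within a range from 0.511-fold to 1.90-fold.

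**Figure D1:**
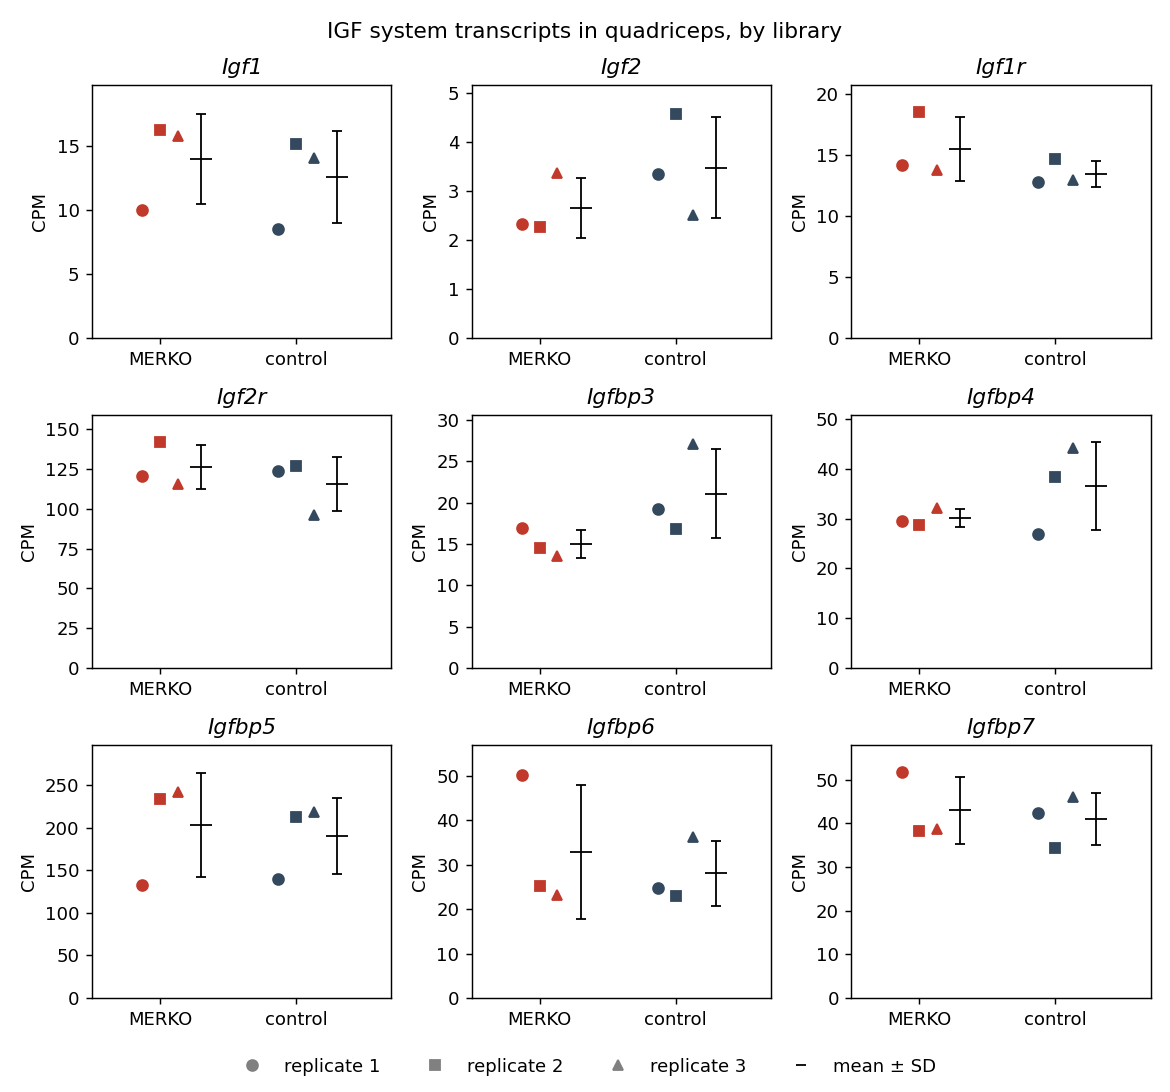
Transcript level of each IGF gene in CPM (vertical axes start at 0) in the 3 MERKO and the 3 control libraries, with marker shapes for the replicate numbers and the mean ± SD beside the points. In each of the 9 panels the MERKO and control points overlap, most narrowly for Igfbp3, where the highest MERKO library is at 16.9 CPM and the lowest control library at 16.8 CPM.

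Of the ligands, Igf1 was the more abundant. Igf1 (ENSMUSG00000020053.18, GRCm38 chromosome 10, 87858265 to 87937042, plus strand) measured 9.94, 16.2 and 15.7 CPM in MERKO libraries 1 to 3, against 8.49, 15.2 and 14.0 CPM in control libraries 1 to 3. Library 1 of each genotype was the lowest, and the other 4 libraries lay close together. The means were 14.0 ± 3.50 CPM in MERKO, against 12.6 ± 3.57 CPM in control libraries (SD, n = 3 each), with a log2 fold change of 0.15 (SE 0.25, 95% interval -0.44 to 0.73, adjusted p = 0.909, edgeR). This fit, which takes no account of replicate numbers, therefore leaves room for Igf1 levels in MERKO between 0.738 and 1.66 times those of control. The log2 fold change took either sign when single libraries were left out, from -0.07 without control 1 to 0.35 without MERKO 1.

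Igf2, the ligand that dominates fetal growth, is expressed from the paternal allele in most mouse tissues and is low in adult muscle. It (ENSMUSG00000048583.16, chromosome 7, 142650766 to 142666816, minus strand) had 77, 27 and 70 counts in MERKO libraries 1 to 3, against 80, 58 and 137 counts in control libraries 1 to 3. That made 2.34, 2.27 and 3.37 CPM in MERKO and 3.36, 4.58 and 2.52 CPM in control. The highest MERKO library lay above 2 of the control libraries, so the groups overlapped. The log2 fold change was -0.34 (SE 0.27, 95% interval -0.97 to 0.29, adjusted p = 0.798, edgeR), and it was -0.12 with control 2 left out and -0.03 when MERKO 2 was left out as well. Igf2 is the member with the fewest counts, and its interval is among the widest. In the GENCODE annotation it shares 3596 exon bases with Gm49394 on the same strand, a gene that is not among those of the count table. It also shares 98 with the antisense gene Igf2os, which had at most 6 counts in any library.

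The receptors were the least variable members. Igf1r, the receptor tyrosine kinase (ENSMUSG00000005533.10, chromosome 7, 67952827 to 68233668, plus strand), measured 14.2, 18.5 and 13.8 CPM in MERKO libraries 1 to 3, against 12.7, 14.7 and 12.9 CPM in control libraries 1 to 3. MERKO 2 was the highest library, and the other 5 lay within 12.7 to 14.7 CPM. Its log2 fold change was 0.20 (SE 0.14, 95% interval -0.12 to 0.52, adjusted p = 0.758, edgeR), and 0.07 without MERKO 2. Igf2r, the clearance receptor, which also carries mannose 6-phosphate-tagged enzymes to lysosomes (ENSMUSG00000023830.13, chromosome 17, 12682406 to 12769664, minus strand), measured 121, 142 and 116 CPM in MERKO libraries 1 to 3, against 124, 127 and 96.3 CPM in control libraries 1 to 3. The lowest library was control 3. Its log2 fold change was 0.13 (SE 0.14, 95% interval -0.19 to 0.44, adjusted p = 0.853, edgeR), which bounds the MERKO level at 0.879 to 1.36 times that of control. It was 0.0092 without control 3 and 0.039 without MERKO 2, so its size rests on single libraries.

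Igfbp3 codes for the main carrier of IGF in blood. In the table (ENSMUSG00000020427.11, chromosome 11, 7206086 to 7213923, minus strand) it measured 16.9, 14.5 and 13.6 CPM in MERKO libraries 1 to 3, against 19.3, 16.8 and 27.1 CPM in control libraries 1 to 3. MERKO 1 lay just above control 2, and control 3 was far above the rest. The means were 15.0 ± 1.71 CPM in MERKO, against 21.1 ± 5.39 CPM in control libraries (SD, n = 3 each). The log2 fold change was -0.50 (SE 0.18, 95% interval -0.92 to -0.08, unadjusted p = 0.0251, adjusted p = 0.683, edgeR). Without control 3 it was -0.27, and over the other alternatives it lay between -0.68 and -0.43, always below 0 and never past the adjusted threshold.

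Igfbp4, a binding protein that mostly restrains IGF until the protease PAPP-A cuts it (ENSMUSG00000017493.12, chromosome 11, 99041244 to 99054392, plus strand), measured 29.6, 28.7 and 32.0 CPM in MERKO libraries 1 to 3, against 26.8, 38.4 and 44.2 CPM in control libraries 1 to 3. The MERKO libraries lay within a narrow range between the lowest and the other 2 control libraries. Its log2 fold change was -0.28 (SE 0.17, 95% interval -0.67 to 0.12, adjusted p = 0.735, edgeR), and -0.11 without control 3. The coefficient of variation was 5.76% in MERKO and 24.2% in control, from 3 libraries each.

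Igfbp5, which binds to extracellular matrix and is induced as myoblasts differentiate, had the highest count of the 9 genes. Igfbp5 (ENSMUSG00000026185.8, chromosome 1, 72857932 to 72874884, minus strand) measured 133, 234 and 242 CPM in MERKO libraries 1 to 3, against 139, 213 and 219 CPM in control libraries 1 to 3. As for Igf1, library 1 of each genotype was well below the other 4. Its log2 fold change was 0.09 (SE 0.25, 95% interval -0.49 to 0.67, adjusted p = 0.949, edgeR), and it took either sign when single libraries were left out, from -0.09 without control 1 to 0.32 without MERKO 1.

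Igfbp6, which prefers IGF-2 to IGF-1 (ENSMUSG00000023046.6, chromosome 15, 102144362 to 102149511, plus strand), measured 50.2, 25.3 and 23.2 CPM in MERKO libraries 1 to 3, against 24.9, 22.9 and 36.3 CPM in control libraries 1 to 3. MERKO 1 stood apart from all other libraries. The log2 fold change was 0.23 (SE 0.30, 95% interval -0.46 to 0.93, adjusted p = 0.876, edgeR), and -0.22 without MERKO 1, so its sign rests on that library. Igfbp7, a secreted relative that binds IGF weakly and is abundant in vessel walls (ENSMUSG00000036256.13, chromosome 5, 77349240 to 77408041, minus strand), measured 51.8, 38.2 and 38.7 CPM in MERKO libraries 1 to 3, against 42.4, 34.3 and 46.1 CPM in control libraries 1 to 3. MERKO 1 was again the highest. Its log2 fold change was 0.07 (SE 0.15, 95% interval -0.29 to 0.42, adjusted p = 0.934, edgeR), and -0.09 without MERKO 1. The 9 endothelial markers summed to 316, 224 and 252 CPM in MERKO libraries 1 to 3, against 301, 236 and 202 CPM in control libraries 1 to 3. Their part in the Igfbp7 values was not tested. Igfbp7 shares 85 exon bases with Polr2b on the opposite strand, and no source used here says whether the counting used strand.

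Igfbp1 and Igfbp2, the remaining classical binding proteins, were nearly absent. Igfbp1 had 0 counts in all 3 MERKO libraries and 1 count in control 1 alone. Igfbp2 had 9, 0 and 1 counts in MERKO libraries 1 to 3, against 5, 0 and 0 counts in control libraries 1 to 3. Neither passed the filter on low counts.

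**Figure D2:**
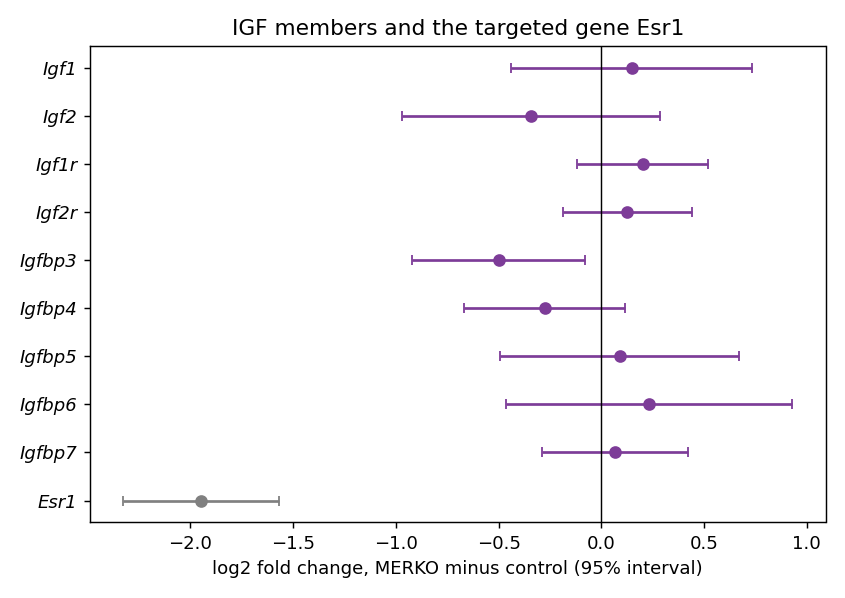
Log2 fold change of MERKO minus control from edgeR (points) with its 95% interval (bars) for the 9 IGF genes and for Esr1. The intervals of 8 members include 0, that of Igfbp3 runs from -0.92 to -0.08 and misses the adjusted threshold, and Esr1 lies at -1.95.

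Levels can be set against each other between genes after division by exon length, and on that scale the binding proteins stood above the ligands and their signalling receptor. The order of the mean CPM per kilobase was the same in MERKO and in control. Igfbp7 averaged 35.5 ± 6.37 CPM per kilobase in MERKO and 33.9 ± 4.98 in control, Igfbp5 33.7 ± 10.1 and 31.7 ± 7.36, and Igfbp6 29.6 ± 13.5 and 25.2 ± 6.53 (SD, n = 3 each). These levels do not differ beyond their spread: Igfbp7 lay above Igfbp5 in 3 of the 6 libraries, and Igfbp5 above Igfbp6 in 5 of the 6. Igf2r came next, at 13.6 ± 1.51 CPM per kilobase in MERKO and 12.4 ± 1.81 in control, below Igfbp6 and above Igfbp4 in 6 of 6 libraries. Igfbp4 averaged 6.82 ± 0.39 CPM per kilobase in MERKO and 8.26 ± 2.00 in control, and Igfbp3 4.78 ± 0.55 and 6.73 ± 1.72, with overlapping ranges and Igfbp4 above in 5 of 6 libraries.

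Igf1, Igf1r and Igf2 formed the low end of the order. Igf1 averaged 1.41 ± 0.35 CPM per kilobase in MERKO and 1.27 ± 0.36 in control, Igf1r 0.923 ± 0.157 and 0.801 ± 0.0637, and Igf2 0.465 ± 0.107 and 0.609 ± 0.181. Within every library Igf1 lay above Igf1r and Igf1r above Igf2, although the ranges over the libraries overlapped. On this scale the gap between Igfbp3 and Igf1 was wide, since the lowest Igfbp3 library was at 4.34 and the highest Igf1 library at 1.64 CPM per kilobase. It rests on the lengths used, 3.13 kilobases for Igfbp3 and 9.904 kilobases for Igf1. In CPM, Igf1 was above Igfbp3 in MERKO 2 (16.2 against 14.5) and MERKO 3 (15.7 against 13.6), and below it in the other libraries. The exon length is that of all annotated exons merged, so a gene that uses a short transcript is placed too low on this scale.

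**Figure D3:**
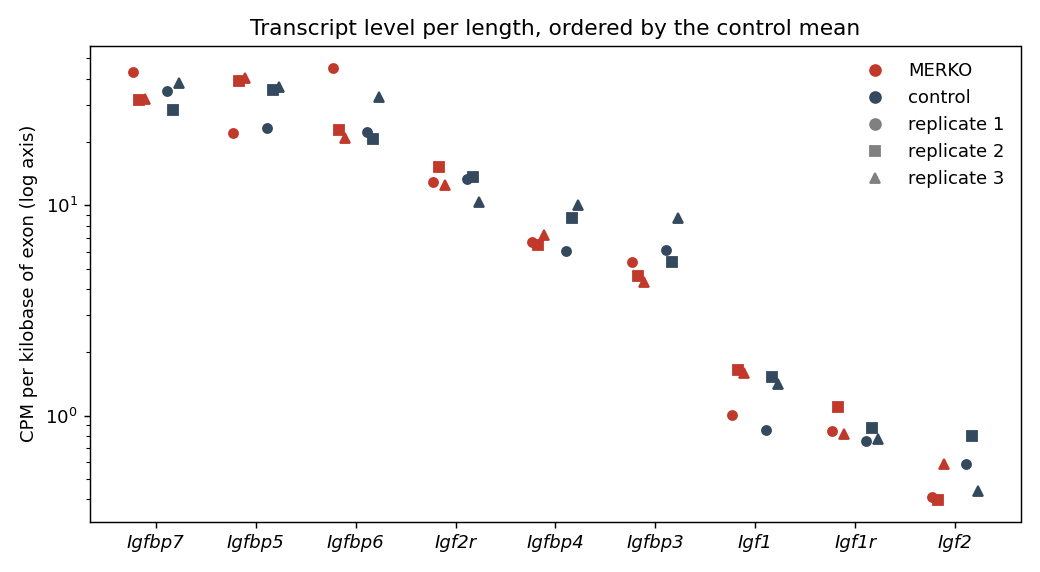
CPM per kilobase of merged exon (log axis) for each gene and library, ordered by the control mean, with MERKO points left of control points. The binding proteins Igfbp7, Igfbp5 and Igfbp6 lie between 20.6 and 45.1, and Igf1, Igf1r and Igf2 lie between 0.397 and 1.64.

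Ratios within a library do not depend on the scaling between libraries. The ratio of Igf1 to Igf2 per kilobase was 2.45, 4.13 and 2.70 in MERKO libraries 1 to 3, against 1.46, 1.91 and 3.22 in control libraries 1 to 3, with overlapping groups. The insulin receptor gene Insr lay above Igf1r per kilobase by factors of 7.44, 5.58 and 6.78 in MERKO libraries 1 to 3, against 7.08, 7.05 and 6.21 in control libraries 1 to 3. Igf2r lay above Igf1r per kilobase by 13.9 to 15.3 times in MERKO and by 13.4 to 17.5 times in control. The share of Igfbp3 in the summed level per kilobase of the 5 binding proteins was 4.41%, 4.43% and 4.14% in MERKO libraries 1 to 3, against 6.63%, 5.46% and 6.88% in control libraries 1 to 3. On this scale the MERKO libraries all lay below the control libraries, a comparison chosen after the values were seen and given without a test. In CPM, 7.10% of all genes tested lay wholly lower in MERKO. The share of Igfbp6 was 37.0% in MERKO 1, 21.8% and 20.0% in MERKO 2 and 3, and 24.1%, 20.9% and 26.0% in control 1 to 3.

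Differences between libraries of the same genotype followed a few patterns that members shared. Likeness was measured as the root mean square difference, over the 6 libraries, between the log2 CPM of both genes after each was centred on its own mean. Igf1 and Igfbp5 were the closest members at 0.10, with Igf1r and Igf2r next at 0.124 and Igfbp6 and Igfbp7 at 0.250. Igf1r and Igf2r varied least of the members, with SDs of log2 CPM of 0.195 and 0.186. The measure is small between any genes that vary little, and the closeness of the receptors was not ranked among all genes. Among 11395 genes, Igfbp5 ranked 6 in closeness to Igf1, and Igf1 ranked 8 in closeness to Igfbp5. In centred log2 CPM, Igf1 was at -0.37 in MERKO 1 and -0.60 in control 1, with the other 4 libraries at 0.12 to 0.33. Igfbp5 was at -0.53 in MERKO 1 and -0.46 in control 1, with the others at 0.16 to 0.34.

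The libraries that were low in Igf1 and Igfbp5 were those with high levels of slow-fibre genes. The 7 slow-fibre markers summed to 511 CPM in MERKO 1 and to 35.9 and 40.6 CPM in MERKO 2 and 3. They summed to 524 CPM in control 1 and to 42.8 and 47.1 CPM in control 2 and 3. Other transcripts peaked in the same 2 libraries. Myh2, the myosin of fast oxidative fibres, measured 3050, 164 and 722 CPM in MERKO libraries 1 to 3, against 1514, 56.7 and 38.3 CPM in control libraries 1 to 3. The 7 smooth muscle and pericyte markers summed to 443, 307 and 345 CPM in MERKO libraries 1 to 3, against 435, 366 and 317 CPM in control libraries 1 to 3, and the endothelial sums, given with Igfbp7, were likewise highest in library 1 of each genotype. The part of fibre type and of vessel cells in the Igf1 and Igfbp5 values was not tested. Without MERKO 1 and control 1 together, the log2 fold change was 0.14 for Igf1 and 0.14 for Igfbp5.

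The genes closest to Igf1 over all genes searched were Gse1, at a root mean square difference of 0.0397, Hlf, a transcription factor with a daily rhythm, at 0.0642, and the integrin gene Itgb7, at 0.0831. Gse1 and Hlf were also the closest to Igfbp5, at 0.0630 and 0.0632, followed by Gmip at 0.0699. Gse1 measured 10.5, 17.7 and 17.5 CPM in MERKO libraries 1 to 3, against 9.79, 16.6 and 15.6 CPM in control libraries 1 to 3. The search covered 11395 genes over 6 libraries.

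Igfbp6 had the largest SD of log2 CPM over the libraries, at 0.46, which placed it above 84.2% of all genes tested. Its closest genes were Slc22a15 at 0.131, Colec12 at 0.149 and Thsd1 at 0.155, and Igfbp7 ranked 74 of 11395. MERKO 1, in which Igfbp6 and Igfbp7 were highest, was also the library with the highest sum of tendon markers. Each marker of that list was highest there except Scx, at 2.28 CPM in MERKO 1 against 2.69 in MERKO 2, 2.77 in control 1 and 2.63 in control 3. The 10 tendon markers summed to 423, 211 and 85.8 CPM in MERKO libraries 1 to 3, against 86.6, 30.6 and 72.0 CPM in control libraries 1 to 3, and 0 of them were absent from all libraries. Between the genotypes, 9 of the 10 tendon markers had a log2 fold change above 0, with a median of 2.21, 8 were under an unadjusted p of 0.05 and 0 were called (edgeR). Of all genes tested, 7.04% were under that p. Markers of 1 cell type can move together and are not independent genes. All 7 Schwann cell and nerve markers also lay above 0, with a median of 0.52, 3 under an unadjusted p of 0.05 and 0 called, and their sums were 61.9, 39.4 and 39.5 CPM in MERKO libraries 1 to 3, against 36.5, 35.9 and 27.6 CPM in control libraries 1 to 3. MERKO 2 had the second highest tendon sum and 25.3 CPM of Igfbp6, and control 3 had a tendon sum of 72.0 CPM and 36.3 CPM of Igfbp6. The 8 markers of fibro-adipogenic progenitors summed to 1200.4, 931 and 754 CPM in MERKO libraries 1 to 3, against 687, 802 and 1063 CPM in control libraries 1 to 3. The highest sum of each genotype was in its library with the highest Igfbp6. Control 1, with the lowest sum, had 24.9 CPM of Igfbp6, against 22.9 CPM in control 2. Between the genotypes, 4 of the 8 lay above 0 and 4 below 0. Of the 8, 3 were under an unadjusted p of 0.05, against 7.04% of all genes, and 0 were called (edgeR). The part of these cell types in the Igfbp6 values was not tested.

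**Figure D4:**
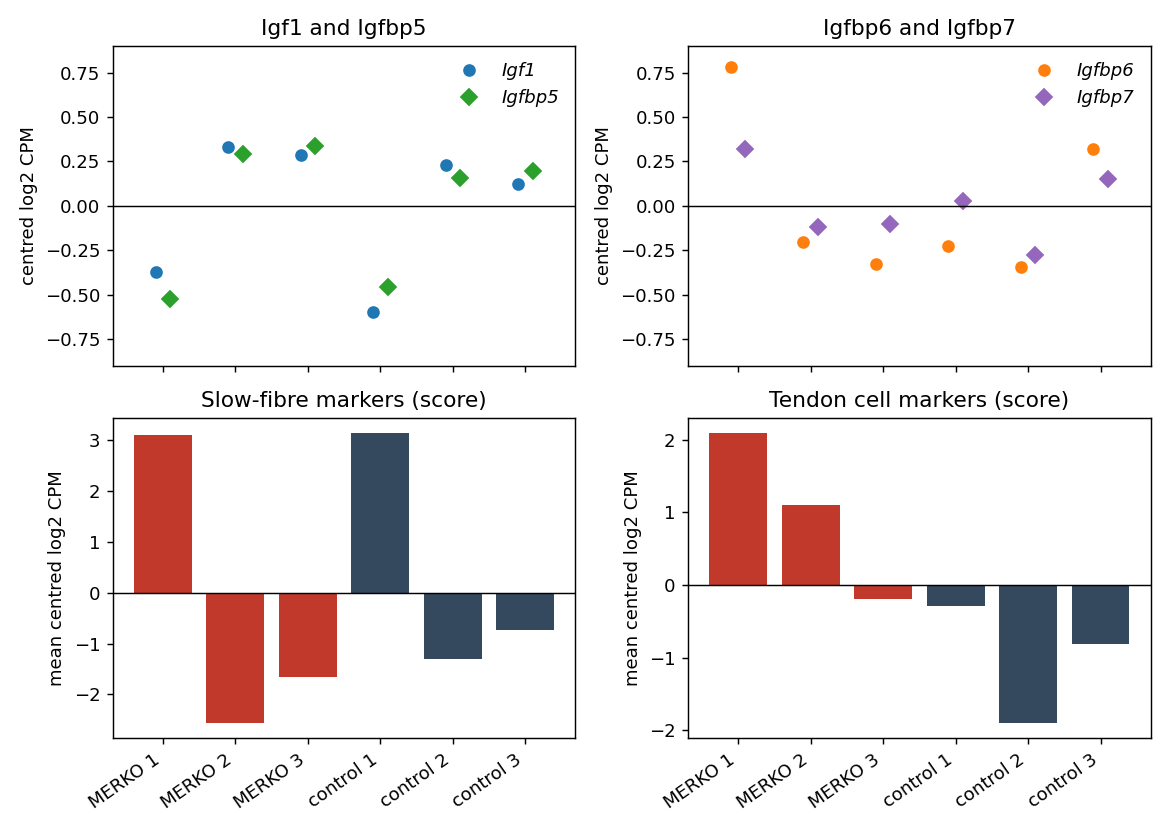
Upper panels show centred log2 CPM of Igf1 with Igfbp5, and of Igfbp6 with Igfbp7, in each library, MERKO left of control; lower panels show the mean centred log2 CPM of the slow-fibre and the tendon markers. Igf1 and Igfbp5 are lowest in MERKO 1 and control 1, where the slow-fibre score is 3.12 and 3.15, and Igfbp6 is highest in MERKO 1, where the tendon score is 2.10.

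Igfbp3 and Igfbp4 were highest in control 3, in which the rRNA model took the smallest share. The 8 macrophage markers summed to 122, 102 and 138 CPM in MERKO libraries 1 to 3, against 104, 136 and 184 CPM in control libraries 1 to 3. The 8 adipocyte markers summed to 131, 112 and 144 CPM in MERKO libraries 1 to 3, against 146, 476 and 222 CPM in control libraries 1 to 3. Every MERKO sum lay below every control sum, narrowly at 144 CPM in MERKO 3 against 146 CPM in control 1. Of single genes, 7.10% of all tested lay wholly lower in MERKO. Fabp4, which endothelial cells also express, made up 115 of the 131 CPM in MERKO 1. Gene by gene, all 7 adipocyte markers tested had a log2 fold change below 0, with a median of -2.21, 6 were under an unadjusted p of 0.05 and 0 were called (edgeR). Of all genes tested, 3.34% were under that p with MERKO lower, and markers of 1 cell type are not independent genes. The adipocyte sum was highest in control 2, which had the lowest Igfbp3 of the control libraries. The part of macrophages and fat cells in the Igfbp3 and Igfbp4 values was not tested.

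The genes around the IGF system were read from 5 further lists. Of other IGF genes, 5 of 10 were tested, 4 above 0 and 1 below 0, and 0 were called. Their median log2 fold change was 0.20. Airn, the long antisense RNA that overlaps Igf2r and silences the paternal Igf2r allele in mouse, averaged 6.66 ± 1.34 CPM in MERKO, against 5.31 ± 0.20 CPM in control libraries (SD, n = 3 each; log2 fold change 0.31, adjusted p = 0.713, edgeR). All MERKO libraries lay above all control libraries, as in 6.17% of all genes. Its exons share no base with those of Igf2r. H19, the imprinted RNA next to Igf2, measured 324, 116 and 185 CPM in MERKO libraries 1 to 3, against 247, 159 and 137 CPM in control libraries 1 to 3, with library 1 highest in each genotype (log2 fold change 0.20, adjusted p = 0.912, edgeR).

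The next list joined proteases that can cut the binding proteins with the stanniocalcins, which inhibit the protease PAPP-A. Of its 14 genes, 9 were tested, 4 above 0 and 5 below 0, with a median of -0.19 and 0 called. Mmp9, a matrix protease made by neutrophils and macrophages among other cells, measured 1.73, 1.94 and 1.49 CPM in MERKO libraries 1 to 3, against 2.77, 3.95 and 4.15 CPM in control libraries 1 to 3. The groups did not overlap, as in 7.10% of all genes with MERKO lower (log2 fold change -1.09, SE 0.23, unadjusted p = 0.0014, adjusted p = 0.631, edgeR). Htra1, a serine protease that can cut IGF binding proteins, averaged 19.1 ± 3.62 CPM in MERKO, against 23.5 ± 1.95 CPM in control libraries (SD, n = 3 each; log2 fold change -0.30, adjusted p = 0.713, edgeR).

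Of 11 genes of growth hormone signalling, which drives Igf1, 9 were tested, 4 above 0 and 5 below 0, with a median of -0.08 and 0 called. Socs3, a feedback inhibitor of cytokine receptors, averaged 2.92 ± 0.50 CPM in MERKO, against 1.91 ± 0.61 CPM in control libraries (SD, n = 3 each; log2 fold change 0.56, adjusted p = 0.713, edgeR). Sh2b1, an adaptor of the kinase JAK2, averaged 29.0 ± 4.03 CPM in MERKO, against 25.8 ± 1.36 CPM in control (log2 fold change 0.17, adjusted p = 0.767, edgeR).

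Of 43 genes of signalling below the IGF receptor, 42 were tested, 21 above 0 and 21 below 0, with a median of 0.00069 and 0 called. The lowest p-values belonged to Eif4ebp1, the translation repressor that mTORC1 switches off, at 23.4, 22.8 and 28.8 CPM in MERKO libraries 1 to 3, against 32.4, 30.4 and 34.9 CPM in control libraries 1 to 3 (unadjusted p = 0.0110, edgeR), and to Pik3r1, a regulatory subunit of PI3-kinase (unadjusted p = 0.0466, edgeR). In Eif4ebp1 the groups did not overlap, as in 7.10% of all genes with MERKO lower. Over the 42 genes, MERKO lay wholly above control in 2 (Sos1 and Phlpp1) and wholly below it in 2 (Akt2 and Eif4ebp1), against 13.3% of all genes in either direction. IGF signalling restrains FoxO proteins, and so the transcription of their atrophy targets. Of the 15 FoxO factors and atrophy targets, all were tested, 4 above 0 and 11 below 0, with a median of -0.10 and 0 called. Trim63, the muscle ubiquitin ligase MuRF1, measured 227, 215 and 369 CPM in MERKO libraries 1 to 3, against 472, 339 and 602 CPM in control libraries 1 to 3 (log2 fold change -0.80, SE 0.26, adjusted p = 0.671, edgeR). Fbxo32, the ligase atrogin-1, measured 393, 366 and 518 CPM in MERKO libraries 1 to 3, against 595, 507 and 735 CPM in control libraries 1 to 3 (log2 fold change -0.53, SE 0.19, adjusted p = 0.680, edgeR). In both, MERKO 3 was higher than the lowest control library, so the groups overlapped. At an unadjusted p under 0.05, the lists held 0, 1, 0, 2 and 2 genes in the order given, against 7.04% of all genes.

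**Figure D5:**
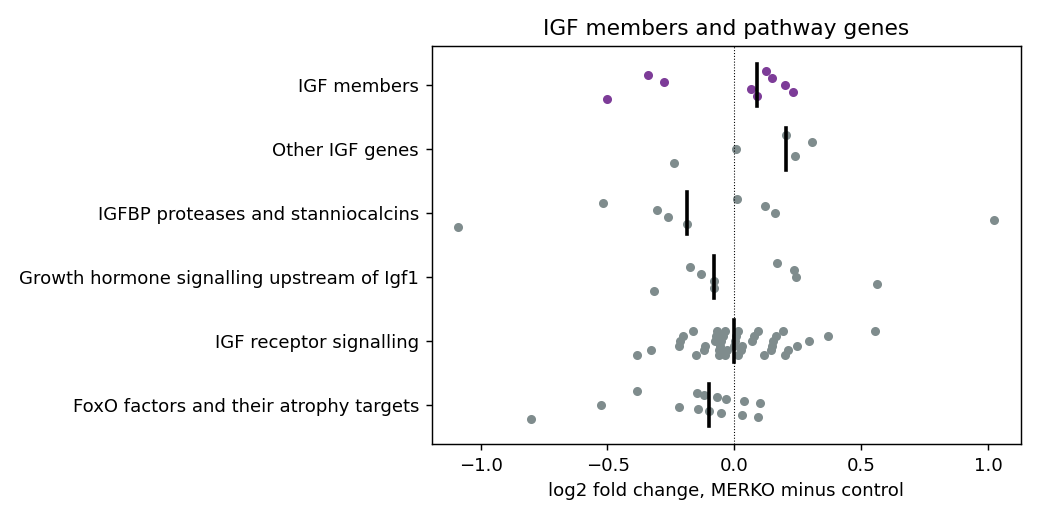
Log2 fold change of MERKO minus control for each tested gene of the IGF members and of 5 further lists, with a bar at the median of each list. The medians lie between -0.19 and 0.20, and the genes farthest from 0 are in the list of proteases and stanniocalcins.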

How the data were processed

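Quadriceps RNA was sequenced from 3 MERKO and 3 control libraries. What the authors deposited is gene-level raw read counts, with a column for each library. STAR 2.5.2b, HTSeq 0.9.1, DESeq and the builds mm10 and GRCm38 appear in the submitters' processing notes, which give no annotation release, strand setting or rule for multiply placed reads. Symbols matched 48349 of 48795 identifiers. GENCODE M21 (GRCm38) gave coordinates and merged exon lengths, matched on unversioned identifiers, and RefSeq gave promoters.

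The comparison used edgeR 4.0.16 in R 4.3.3 (quasi-likelihood test, filterByExpr, TMM, genotype as the sole term) on the whole table. Benjamini-Hochberg adjustment ran over 13628 genes, with a cut-off of 0.05. The edgeR test reports no SE. Each SE was derived as the absolute log2 fold change divided by the square root of the F statistic. The 95% intervals were built from these SEs with a t quantile, so they are approximate. DESeq2 1.42.0, limma-voom (limma 3.58.1) and the settings of the closing section were alternatives. Patterns used log2 CPM with a prior count of 2. The code was tested on simulated data, with known changes larger than that of any member and the same variation between libraries for all genes. That test does not show how well changes as small as those of the members are found. Reads without molecular identifiers are not independent molecules.

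Named genes were the members, Igfbp1, Igfbp2, Esr1, from each list the 2 genes of lowest p whose average log2 CPM was 0 or more, and the 3 genes closest to each of the 3 most variable members. Members, lists and rules were chosen with earlier results of these data known.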

Additional observations from a re-analysis of the deposited data

How the results depend on the processing

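The count of IGF members past the threshold was 0 under all 18 alternatives run, and no member's adjusted p fell below 0.230 in any of them. Igf2, Igf1r, Igf2r, Igfbp3 and Igfbp4 kept their sign in every alternative. Signs of small differences turned: without a composition factor the log2 fold change was -0.0062 for Igf1, -0.086 for Igfbp5 and -0.032 for Igfbp7, while that setting moved the median of all genes to -0.10. Without both libraries numbered 1 it was -0.31 for Igfbp6 and -0.074 for Igfbp7. Leaving out single libraries gave a range of -0.073 to 0.35 for Igf1, -0.092 to 0.32 for Igfbp5, -0.22 to 0.47 for Igfbp6, -0.095 to 0.16 for Igfbp7 and -0.27 to 0.50 for H19. The count of all genes past the threshold was 1, and it was 23 with DESeq2, 93 without a composition factor, 140 without the filter, 7 without both libraries numbered 1 and 0 to 11 when single libraries were left out. The cause was not tested. Of the further lists, 2 genes passed without the filter (Mmp9 and Trim63). With the replicate block, 51 genes passed, Trim63 was the 1 list gene among them, and no member passed. That setting gave Igf1 a log2 fold change of 0.17 with an SE of 0.096, against 0.25 in the main fit. For Igfbp5 it gave 0.07 with an SE of 0.084, against 0.25 in the main fit. The intervals printed for these 2 genes therefore include the shift shared by library 1 of each genotype. Deviations of same-numbered libraries correlated at 0.448, 0.163 and 0.0612, and MERKO 2 and MERKO 3 each correlated better with another number, so the numbers are not taken as pairs. All 18 mean levels per kilobase stayed within 1 SD without a composition factor. Depth limits Igf2 most, with 27 counts in MERKO 2.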

Other observations

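Htra4, a serine protease of the family of Htra1, had the largest fold change among the genes of the protease list above 0 and was noticed after its values were seen. It measured 6.84, 24.0 and 5.53 CPM in MERKO libraries 1 to 3, against 3.99, 7.26 and 6.19 CPM in control libraries 1 to 3, so that MERKO 2 was far above the other 5 libraries (log2 fold change 1.02, unadjusted p = 0.0893, edgeR).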
